A study of Homo sapiens with 9 samples.

Results

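Genes that moved the same way in ovarian cancer cells given an ALK inhibitor and in cells carrying the Tyr19Phe form of CDK9 are described here. Total RNA of SKOV3 cells, a human ovarian cancer line that carries high levels of ERBB2, was sequenced in 3 groups of 3 libraries. The groups were cells expressing WT CDK9 under basal conditions, cells expressing WT CDK9 kept for 24 h with an ALK inhibitor, and cells expressing Tyr19Phe CDK9 without the inhibitor. Elsewhere in the study, stable SKOV3 lines were made by putting WT or Tyr19Phe CDK9 back into cells depleted of their own CDK9 by short hairpin RNA, but whether these libraries came from those lines is not stated. Neither the inhibitor nor its dose is named for this experiment, and the labels do not say whether the libraries of a group came from separate cultures, so p-values measure the spread among these libraries, which may be technical. The comparison set the mean of the inhibitor and Tyr19Phe groups, each with equal weight, against the WT CDK9 group. A gene was counted as shared when this comparison was called at an adjusted p under 0.05 and when the 6 libraries of both groups all lay above, or all below, the 3 WT CDK9 libraries. Of 58735 listed genes, 16350 were tested and 717 were shared, 413 of them lower and 304 higher than in WT CDK9 cells.

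CDK9 is the kinase of P-TEFb, the complex that releases RNA polymerase II from its pause close to the start of genes by phosphorylating the polymerase and the factors that hold it. ALK is a receptor tyrosine kinase best known as an oncogene in lymphoma and lung cancer, and the study addressed its phosphorylation of CDK9 at Tyr19, which phenylalanine cannot accept. The question put to these libraries is which genes respond alike when that phosphorylation is met by a drug or by mutation.

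Libraries held 18169050 to 29320184 counts, and the Tyr19Phe libraries were the deepest. ALK inhibitor replicate 2 and Tyr19Phe replicate 3 held the fewest detected genes of their groups, 19944 and 20635, against 21241 to 22744 in the other libraries. The epithelial markers KRT7 and KRT8 had at least 1217 and 1259 CPM (counts scaled to library size with TMM factors) and ERBB2 at least 1379 CPM in every library, PAX8 was at 257 to 281 CPM, and CDKN2A, which is deleted in this line, had at most 1 count. Of 12 markers of blood, endothelium and fibroblasts, COL1A1 (30.4 to 149 CPM) and COL1A2 (4.87 to 12.1 CPM) passed the filter on low counts, and the others had at most 35 counts in any library. CDK9 (chromosome 9 from 127785679 to 127790787 in GRCh38) had 48.4, 49.6 and 47.6 CPM in WT CDK9 cells, 43.7, 47.2 and 45.6 CPM with the inhibitor and 52.3, 53.1 and 59.5 CPM in Tyr19Phe cells. These counts do not tell the introduced CDK9 from the cell's own. ALK itself had at most 5 counts per library, which is too few to see whether its RNA differed. As RNA was taken from bulk cultures, fewer cells of a kind and less RNA per cell cannot be told apart.

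In edgeR's quasi-likelihood test over all 9 libraries, with Benjamini-Hochberg adjustment across every tested gene, 1483 genes were called in the comparison of both groups with WT CDK9 cells (9.07% of those tested), 924 lower (5.65%) and 559 higher (3.42%). Without any test, the 6 libraries lay below the WT CDK9 libraries for 629 genes (3.85%) and above them for 542 genes (3.31%). Requiring both left the 413 shared genes that were lower (2.53%) and the 304 that were higher (1.86%), and these last shares are the background against which the gene groups below are read. Over the 13145 tested protein-coding genes alone, the shares were larger, at 3.07% and 2.19%. Among protein-coding genes above 10 CPM, the lower share ran from 2.21% to 7.01% with listed gene length. The all-gene background is therefore a low bar for lists of well expressed protein-coding genes. Shared changes were small. The median absolute log2 fold change was 0.27 among the lower genes and 0.30 among the higher genes, and 15 genes in each direction changed at least 2-fold. The separate comparisons from the same fit share the WT CDK9 libraries. With the inhibitor alone 4.55% of the tested genes were called, and with Tyr19Phe CDK9 18.0%. Of the shared genes, 159 lower and 105 higher genes were called in each separate comparison, 35 and 34 with the inhibitor only, 210 and 149 in Tyr19Phe cells only, and 9 and 16 in neither. The last lower gene inside the threshold was SFXN2 (adjusted p = 0.0485, edgeR) and the first outside was AC008619.1 (adjusted p = 0.0501), and on the higher side these were DSEL (adjusted p = 0.0498) and BMP1 (adjusted p = 0.0501).

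The split between the directions depends on how the libraries are scaled. With TMM factors, 57.6% of the shared genes were lower. Scaled by the upper quartile the share was 47.6% (332 lower, 365 higher), and by library size alone 39.6% (274 lower, 418 higher). The median log2 fold change of all tested genes was -0.004 with TMM. Leaving out WT CDK9 replicate 1, the called genes fell to 579 lower and 314 higher, and without WT CDK9 replicate 3 they fell to 612 and 354. Without both libraries with the fewest detected genes, 441 lower and 325 higher genes were shared.

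**Figure D1:**
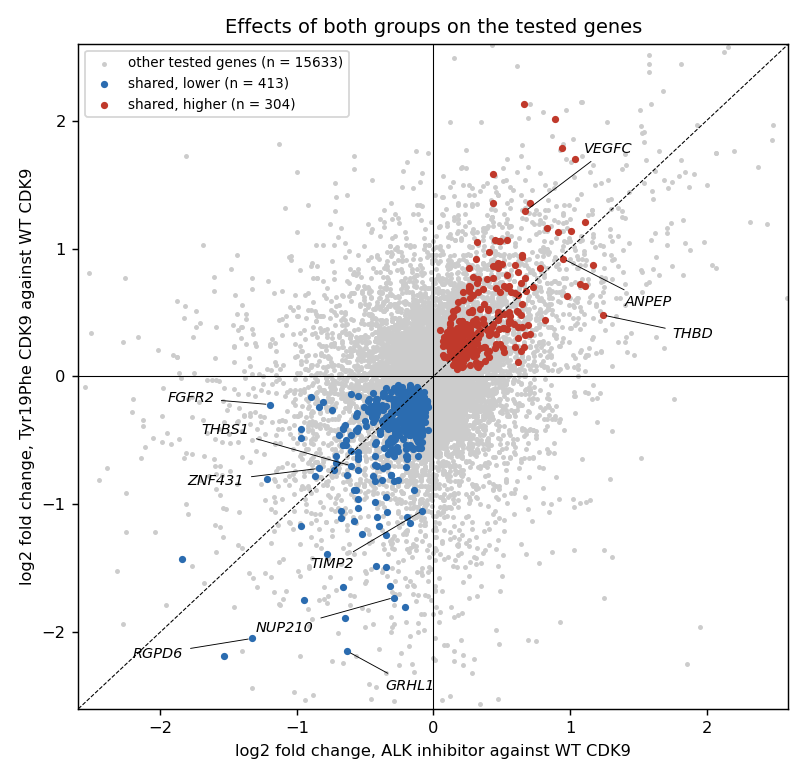
Each point is a tested gene, with its log2 fold change with the ALK inhibitor on the x axis and in Tyr19Phe CDK9 cells on the y axis, both against WT CDK9 cells and both using the same WT CDK9 libraries. The 413 lower shared genes lie in the lower left quadrant and the 304 higher ones in the upper right, and the dashed line marks equal effects. 57 genes lie outside the axes.

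The shared gene with the smallest adjusted p was THBS1, which encodes thrombospondin 1, a secreted protein that binds matrix and cell surface receptors and restrains angiogenesis. It had 6287, 6235 and 6092 CPM in WT CDK9 cells, 4286, 4162 and 3838 CPM with the inhibitor and 3898, 3752 and 3788 CPM in Tyr19Phe cells. All 6 libraries were well below the WT CDK9 libraries, with -0.60 on the log2 scale for the inhibitor and -0.70 for Tyr19Phe (common change -0.65, standard error 0.03, adjusted p = 2.28e-18). FSTL1, a secreted glycoprotein that modulates BMP signalling, went from 2002 to 2103 CPM in WT CDK9 cells to 1523 to 1555 CPM with the inhibitor and 1413 to 1505 CPM in Tyr19Phe cells (-0.46, standard error 0.03, adjusted p = 4.09e-14). IGFBP3, the main carrier of insulin-like growth factors, went from 2035 to 2056 CPM to 1390 to 1495 CPM and 1508 to 1614 CPM (-0.44, standard error 0.03, adjusted p = 3.55e-13). FSTL1 was slightly lower in Tyr19Phe cells than with the inhibitor, and IGFBP3 the reverse.

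Other genes at the top of the lower side differed more between the groups. NUP210, a membrane protein of the nuclear pore, had 170, 180 and 173 CPM in WT CDK9 cells, 144, 155 and 129 CPM with the inhibitor and 50.8 to 54.3 CPM in Tyr19Phe cells. Its fall was much deeper in Tyr19Phe cells (-1.73) than with the inhibitor (-0.29), and the direct comparison of these groups gave -1.44 (adjusted p = 5.16e-18). That difference does not use the WT CDK9 libraries, but the spread behind its p-value comes from the fit of all 9 libraries. NPNT, a matrix ligand of integrin alpha 8 beta 1, fell by 1.48 on the log2 scale in Tyr19Phe cells and by 0.42 with the inhibitor. TIMP2, an inhibitor of matrix metalloproteinases, is shared almost wholly through Tyr19Phe cells, at 237, 216 and 198 CPM against 462, 435 and 449 CPM, since the inhibitor libraries at 429, 412 and 434 CPM lay just under the lowest WT CDK9 library (-0.08, adjusted p = 0.477). It kept its call but was not shared with any other scaling tried or with DESeq2, nor in 7 of the 9 fits with a library left out. GFRA1, the co-receptor through which GDNF signals, fell by 0.66 with the inhibitor and by 0.54 in Tyr19Phe cells, from 230 to 241 CPM to 146 to 150 CPM with the inhibitor and 155 to 172 CPM in Tyr19Phe cells (-0.60, standard error 0.04, adjusted p = 2.43e-12).

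On the higher side, ANPEP stood first. It encodes aminopeptidase N (CD13), an ectoenzyme that trims peptides at the cell surface, and had 114, 111 and 115 CPM in WT CDK9 cells, 231, 211 and 214 CPM with the inhibitor and 207, 220 and 215 CPM in Tyr19Phe cells. The 6 values of both groups overlap each other and lie far above WT CDK9 cells, and the direct difference between the groups was -0.03 with a 95% interval from -0.13 to 0.06 (common change 0.94, standard error 0.04, adjusted p = 1.85e-16). NT5E, the ectoenzyme CD73 that makes adenosine from AMP, had 104, 99.0 and 99.9 CPM in WT CDK9 cells, 150, 139 and 140 CPM with the inhibitor and 172, 193 and 194 CPM in Tyr19Phe cells (0.69, standard error 0.05, adjusted p = 6.26e-12). GJA1, the gap junction protein connexin 43, had 67.6, 66.5 and 69.0 CPM, then 99.3, 87.7 and 94.0 CPM and 127, 118 and 121 CPM (0.66, standard error 0.05, adjusted p = 1.71e-10). For NT5E and GJA1 the groups did not overlap with each other, and Tyr19Phe cells were higher than inhibitor-treated cells by 0.38 in each case.

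Further genes at the top of the higher side were PGM2L1, which makes the sugar phosphate glucose 1,6-bisphosphate (0.82, from 30.5 to 33.6 CPM to 54.5 to 63.7 CPM over both groups), AKAP12, a scaffold that tethers protein kinase A (0.45), and SEMA4B, a membrane semaphorin (0.46). The direct differences of PGM2L1 and SEMA4B were 0.06 (95% interval -0.09 to 0.22) and -0.02 (-0.12 to 0.08). AKAP12 rose further with the inhibitor, by 0.51 against 0.38 (direct difference -0.13, adjusted p = 0.039). TFPI2, a secreted inhibitor of serine proteases, rose mainly with the inhibitor, at 282, 271 and 275 CPM against 182, 171 and 186 CPM, and in Tyr19Phe cells was at 195, 190 and 196 CPM (0.11, adjusted p = 0.103). The plot of the 20 leading genes by library shows both patterns.

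**Figure D2:**
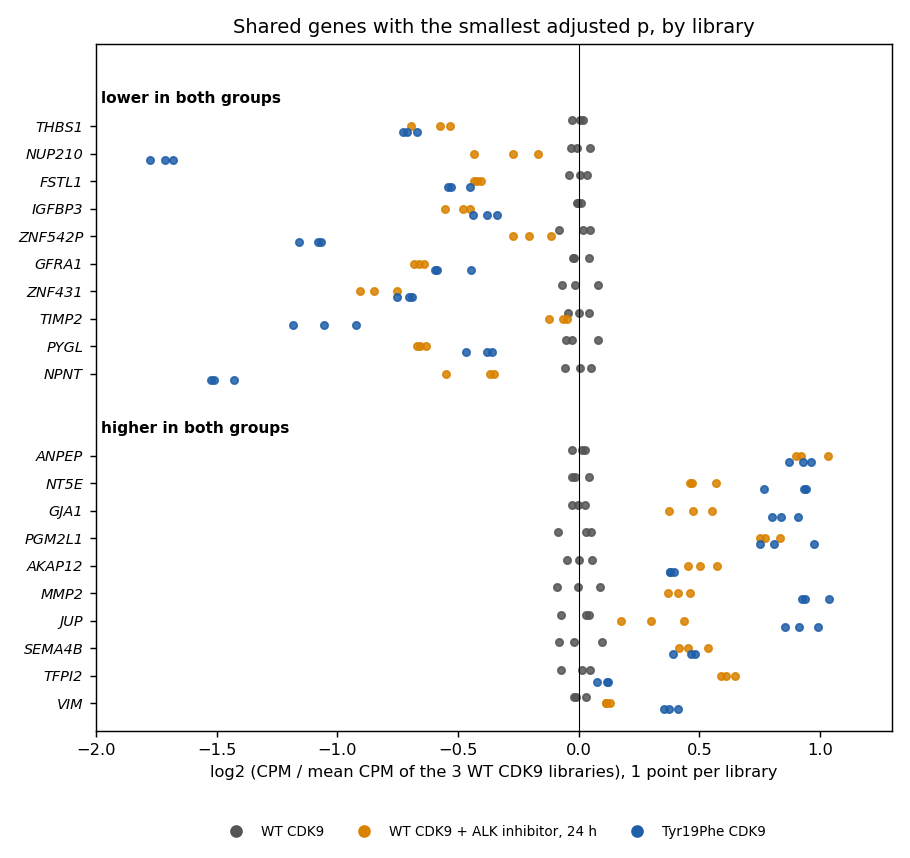
The 10 lower and 10 higher shared genes with the smallest adjusted p among those with a mean of at least 5 CPM, with each library's CPM divided by the mean of the WT CDK9 libraries on a log2 axis. The points of both groups lie close together for GFRA1, ANPEP and PGM2L1, while NUP210, ZNF542P and TIMP2 moved further in Tyr19Phe cells and TFPI2 further with the inhibitor.

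The sequence ahead of the start of the first 3 genes in each direction is shown because these shared genes had the smallest adjusted p. NUP210, NT5E and GJA1 are among those whose change differed in size between the groups. Each is the 150 bases before the RefSeq start in GRCh38.p14, 5′ to 3′ on the strand of the gene, at chr15:39580929-39581078 for THBS1 (plus strand), chr3:13420323-13420472 for NUP210 (minus), chr3:120450993-120451142 for FSTL1 (minus), chr15:89814853-89815002 for ANPEP (minus), chr6:85449933-85450082 for NT5E (plus) and chr6:121435496-121435645 for GJA1 (plus). Capitals mark matches, on either strand, to the TATA box TATAAA, the CCAAT box CCAAT, the GC box GGGCGG, the TEAD motif CATTCC, the AP-1 motif TGANTCA, the cyclic AMP response element TGACGTCA and the E-box CACGTG.
THBS1: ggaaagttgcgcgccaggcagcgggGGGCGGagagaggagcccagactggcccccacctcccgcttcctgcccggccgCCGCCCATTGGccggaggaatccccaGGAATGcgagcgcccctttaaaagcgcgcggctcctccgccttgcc
NUP210: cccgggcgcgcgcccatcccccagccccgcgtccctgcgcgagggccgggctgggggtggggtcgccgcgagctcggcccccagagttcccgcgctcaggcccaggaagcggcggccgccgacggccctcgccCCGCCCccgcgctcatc
FSTL1: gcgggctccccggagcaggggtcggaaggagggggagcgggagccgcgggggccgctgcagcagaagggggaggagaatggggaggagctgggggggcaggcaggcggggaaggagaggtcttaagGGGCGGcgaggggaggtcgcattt
ANPEP: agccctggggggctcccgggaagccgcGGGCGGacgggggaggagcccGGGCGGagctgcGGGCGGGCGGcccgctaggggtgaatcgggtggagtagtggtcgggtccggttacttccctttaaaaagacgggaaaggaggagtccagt
NT5E: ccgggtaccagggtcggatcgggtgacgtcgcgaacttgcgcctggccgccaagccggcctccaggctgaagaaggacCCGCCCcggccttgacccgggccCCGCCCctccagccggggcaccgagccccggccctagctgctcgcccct
GJA1: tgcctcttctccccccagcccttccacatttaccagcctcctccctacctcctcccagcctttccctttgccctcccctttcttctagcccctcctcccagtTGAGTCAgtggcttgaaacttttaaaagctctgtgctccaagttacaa

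The promoter of THBS1 holds a GC box, a CCAAT box beside another GC box and, 46 bases before the start, the reverse complement of the TEAD letters. Among the letters searched, NUP210, FSTL1, ANPEP and NT5E hold GC boxes alone, of which those 90 and 86 bases before the start of ANPEP overlap, and GJA1 holds an AP-1 match 48 bases before the start. None of the 6 holds the TATA box letters in these bases. Over the longer RefSeq windows around the start, which could be matched to 11488 tested genes, GC boxes stood in 69.5% of all windows, in 78.5% of the 325 of lower shared genes and in 69.1% of the 246 of higher shared genes. TEAD letters stood in 10.7%, 10.8% and 10.6%, AP-1 letters in 4.66%, 5.23% and 6.50%, the cyclic AMP element in 3.24%, 2.46% and 0.813%, and the CCAAT box in 36.2%, 37.5% and 37.8%. The TATA box stood in 5.68%, 4.92% and 8.13%, and the E-box in 9.93%, 9.85% and 10.6%. A match to so few letters is a description of the window and not a binding site.

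Targets of YAP and TAZ, the coactivators of the Hippo pathway that read cell spreading and contact, held the highest share of shared lower genes among the lists counted. Of 22 tested YAP and TAZ targets, 6 were shared and lower (27.3%) and NT5E was shared and higher, with a median log2 fold change over the list of -0.13 where all tested genes had -0.00. CYR61 (CCN1) and CTGF (CCN2), the matricellular proteins most often used as readouts of YAP, fell together. CYR61 had 660, 671 and 756 CPM in WT CDK9 cells, 499, 474 and 501 CPM with the inhibitor and 562, 536 and 545 CPM in Tyr19Phe cells (-0.42, standard error 0.04, adjusted p = 4.3e-10). CTGF had 639, 607 and 686 CPM, then 554, 483 and 512 CPM and 521, 460 and 486 CPM (-0.36, standard error 0.04, adjusted p = 1.52e-07). CRIM1, a membrane antagonist of BMPs whose gene overlaps FEZ2 on the other strand, moved from 600 to 612 CPM to 457 to 488 CPM over both groups (-0.35). AMOTL2, which holds YAP at cell junctions and was chosen after its values were seen, fell by 0.60 with the inhibitor and by 0.14 in Tyr19Phe cells. The list's median was -0.28 with the inhibitor and -0.11 in Tyr19Phe cells, and IGFBP3 and AXL were its other lower members.

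Among 39 matricellular and matrix glycoproteins the directions were mixed. THBS1, FSTL1, CYR61 and CTGF were the 4 lower ones, and SPOCK1, TGFBI, LTBP4 and FBN1 were the 4 higher ones. TGFBI, a matrix protein induced by TGF-beta, rose from 804 to 839 CPM to 993 to 1032 CPM with the inhibitor and 920 to 931 CPM in Tyr19Phe cells, and SPOCK1, a matrix proteoglycan, from 35.9 to 41.2 CPM to 45.6 to 48.9 CPM and 64.9 to 66.5 CPM. Both were chosen after their values were seen. Of 21 collagens, COL12A1 (-0.26) and COL4A1 (-0.15, which overlaps COL4A2 on the other strand) were lower and COL17A1 (0.63) higher, and the call of COL17A1 was lost without WT CDK9 replicate 1 or without Tyr19Phe replicate 2.

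The adhesion receptors that bind matrix split by subunit. Of 25 integrin and laminin genes, 3 were shared and lower and 4 higher. ITGB4, the beta subunit of the hemidesmosome integrin, had 127, 134 and 122 CPM in WT CDK9 cells, 80.2, 81.9 and 96.2 CPM with the inhibitor and 78.0, 66.9 and 61.7 CPM in Tyr19Phe cells (-0.73, standard error 0.06, adjusted p = 4.3e-10). ITGB8, whose integrin activates latent TGF-beta, fell by 0.65 with the inhibitor and by 0.38 in Tyr19Phe cells, and LAMA5, a laminin chain of epithelial basement membranes, fell by 0.38 and by 0.35. ITGB4 and LAMA5 overlap GALK1 and ADRM1 on the other strand, and how strand was treated in counting is not given in the sources used here. ITGA5, the fibronectin receptor subunit, went the other way, from 86.5 to 90.1 CPM to 110 to 128 CPM with the inhibitor and 113 to 120 CPM in Tyr19Phe cells (0.43, standard error 0.05, adjusted p = 6.03e-07). Its partner ITGB1 (0.17) and ITGA6 (0.30), both chosen after their values were seen, and ITGA4 were the other higher members.

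Of 29 matrix proteases and their inhibitors, 7 were shared and higher (24.1%) and 5 lower (17.2%), 12 of the 29 in all. MMP2, a gelatinase, had 39.9, 42.4 and 45.2 CPM in WT CDK9 cells, 54.9, 58.5 and 56.5 CPM with the inhibitor and 81.4, 80.6 and 87.1 CPM in Tyr19Phe cells (0.69, standard error 0.06, adjusted p = 2.55e-09). MMP1, an interstitial collagenase, rose from 35.9 to 36.9 CPM to 51.6 to 58.9 CPM and 47.9 to 58.2 CPM (0.56). ADAM12, a membrane disintegrin and metalloproteinase, rose to a like extent in each group, from 60.8 to 69.9 CPM to 88.7 to 96.5 CPM and 87.2 to 97.7 CPM (0.51). PLAU, the urokinase that activates plasminogen, rose by 0.28, and ADAM19 (0.55) and TIMP1 (0.25), chosen after their values were seen, rose too. TIMP2 was among the lower members through Tyr19Phe cells, with the limits given above, and ADAMTS1, ADAM10, ADAMTS9 and SERPINE2 were the other lower ones. MMP10 completed the higher ones.

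Growth factor receptors moved only downward among the shared genes. Of 36 tested receptor tyrosine kinases, EGFR, AXL, KIT and FGFR2 were shared and lower (11.1%) and none was higher, with 5 called lower and 2 called higher before the libraries had to separate. EGFR had 641, 610 and 634 CPM in WT CDK9 cells, 559, 580 and 554 CPM with the inhibitor and 439, 411 and 417 CPM in Tyr19Phe cells, a stepwise difference with no overlap (-0.15 and -0.57). FGFR2 was the reverse, at 8.81, 9.96 and 9.82 CPM, then 3.41, 4.11 and 4.95 CPM with the inhibitor and 8.08, 8.11 and 8.40 CPM in Tyr19Phe cells (-1.20 and -0.22). Its change in Tyr19Phe cells was not called in the separate comparison (adjusted p = 0.455, edgeR). AXL, the receptor of GAS6, fell by 0.27 with the inhibitor and by 0.11 in Tyr19Phe cells, and KIT by 0.56 and by 0.29. AXL was not shared with scaling to library size alone or to the upper quartile. HBEGF, a ligand of EGFR, fell as well, from 35.3 to 39.3 CPM to 23.2 to 27.1 CPM in inhibitor-treated cells, and Tyr19Phe cells averaged 30.2 ± 0.752 CPM (SD, n = 3; common change -0.44, standard error 0.08, adjusted p = 0.000242). VEGFC, a growth factor for lymphatic vessels, rose from 7.69 to 8.49 CPM to 12.3 to 13.5 CPM and 19.1 to 20.2 CPM (0.98, standard error 0.12, adjusted p = 7.07e-07).

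Among cell junction genes the lower ones were more numerous. Of 29 cadherins and desmosomal genes, FAT1, CELSR2, PKP2 and CDH24 were shared and lower (13.8%), and JUP was higher. FAT1, a giant cadherin, had 694, 636 and 667 CPM in WT CDK9 cells, 513, 536 and 512 CPM with the inhibitor and 473, 451 and 431 CPM in Tyr19Phe cells (-0.46, standard error 0.03, adjusted p = 2.05e-11). PKP2, a plakophilin of desmosomes, had 50.2, 50.7 and 48.8 CPM, then 26.8, 25.7 and 31.1 CPM with the inhibitor and 45.9, 41.9 and 39.3 CPM in Tyr19Phe cells (-0.54, standard error 0.08, adjusted p = 5.16e-06). JUP, the plakoglobin that links both cadherins and desmosomes to the cytoskeleton, moved against them, from 62.5 to 67.7 CPM to 74.3 to 89.1 CPM and 119 to 131 CPM (0.61).

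Of 16 regulators of the epithelial-mesenchymal transition, GRHL1 and ESRP2, which maintain epithelial transcription and splicing, were shared and lower, and VIM, a mesenchymal intermediate filament, and SNAI2, a repressor of epithelial genes, were shared and higher. SNAI2 had 114, 103 and 123 CPM in WT CDK9 cells, 173, 177 and 189 CPM with the inhibitor and 132, 128 and 139 CPM in Tyr19Phe cells (0.45, standard error 0.05, adjusted p = 1.52e-07). VIM had 1130, 1169 and 1135 CPM, then 1254, 1240 and 1238 CPM and 1525, 1463 and 1486 CPM (0.25, standard error 0.03, adjusted p = 5.33e-08). SNAI2 rose more with the inhibitor and VIM more in Tyr19Phe cells, with direct differences of -0.43 and 0.26. GRHL1 was near 2 CPM in WT CDK9 cells (1.95, 1.90 and 2.19 CPM), at 1.04, 1.21 and 1.65 CPM with the inhibitor and at 0.609, 0.284 and 0.452 CPM in Tyr19Phe cells, and its call was lost without any of the WT CDK9 libraries, without ALK inhibitor replicate 1 or 2, or without Tyr19Phe replicate 2. ESRP2 (-0.35, adjusted p = 0.0478) lost its call under library size alone, the upper quartile, DESeq2 and in 7 of the 9 fits with a library left out. Without both libraries with the fewest genes, none of the list was shared and lower, and 3 were shared and higher.

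CGN, MAL2, LLGL2, ERBIN, DLG1 and LGALS1 were chosen after their values were seen. CGN, the tight junction protein cingulin, had 31.7, 30.7 and 35.9 CPM in WT CDK9 cells, 18.3 to 23.1 CPM with the inhibitor and 15.6, 15.7 and 14.3 CPM in Tyr19Phe cells (-0.89, standard error 0.09, adjusted p = 3.26e-08). CLDN3, a claudin of the same junction, was low, at 3.95 to 5.75 CPM, and went to 2.18 to 3.29 CPM and 1.49 to 1.92 CPM (-1.08), a call lost without WT CDK9 replicate 2. The polarity scaffolds LLGL2 (-0.45), ERBIN (-0.35) and DLG1 (-0.30) and the sorting protein MAL2 (-0.47) lay further below WT CDK9 cells in Tyr19Phe cells, with direct differences of -0.32, -0.40, -0.25 and -0.28. LGALS1, a galectin of mesenchymal cells, rose from 448 to 502 CPM to 509 to 537 CPM and 614 to 709 CPM (0.31).

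**Figure D3:**
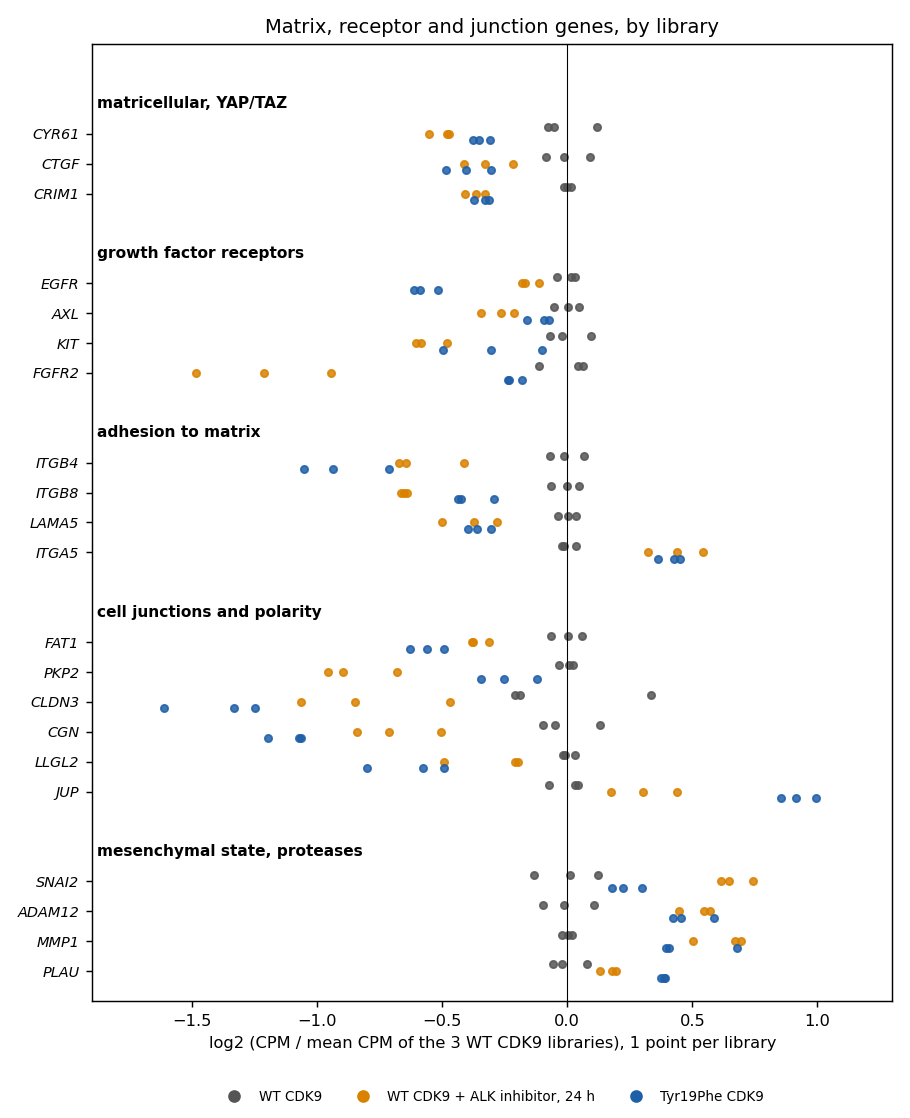
Matrix, receptor, junction and protease genes of the shared set, with each library's CPM divided by the mean of the WT CDK9 libraries on a log2 axis. The inhibitor libraries lie further from WT for FGFR2, PKP2 and SNAI2, the Tyr19Phe libraries for EGFR, CGN and JUP, and both lie together for CTGF, CRIM1, LAMA5, ITGA5 and ADAM12.

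Of 21 ectoenzymes, ANPEP, NT5E and CPM (carboxypeptidase M) were shared and higher (14.3%) and none lower, and the call of carboxypeptidase M (0.47, adjusted p = 0.0436) was lost in 6 of the 9 fits with a library left out. Before the libraries had to separate, 2 other ectoenzymes were called lower. Of 16 surface and secreted antigens of ovarian cancer, CD24, FOLR1 and CLDN3 were shared and lower (18.8%) and none higher, with 5 called lower and 2 called higher in all. FOLR1, the folate receptor targeted by antibody-drug conjugates, had 34.6, 33.5 and 41.1 CPM in WT CDK9 cells, 24.8, 25.2 and 24.8 CPM with the inhibitor and 24.6, 23.9 and 21.1 CPM in Tyr19Phe cells (-0.60, standard error 0.09, adjusted p = 8.91e-06). CD24, a glycosylated surface protein that binds Siglec-10, had 994, 1001 and 1013 CPM, then 696, 756 and 706 CPM and 882, 782 and 825 CPM (-0.38, standard error 0.03, adjusted p = 9.01e-10). The keratin KRT7 had -0.35 with the inhibitor and -0.09 in Tyr19Phe cells, and was not shared with scaling to library size alone or to the upper quartile. Of 23 ABC transporters ABCA3, ABCA1 and ABCE1 were shared and lower, led by ABCA3 (-0.92).

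Of 17 HLA class I and antigen processing genes, HLA-E, NLRC5 and TAPBP were shared and higher (17.6%) and none lower, 8 were called higher, and the list's median was 0.23. The median was 0.12 with the inhibitor and 0.32 in Tyr19Phe cells. HLA-E and TAPBP were not called with the inhibitor in its separate comparison (adjusted p = 0.151 and 0.194, edgeR). NLRC5, the transactivator of class I genes, had 24.1, 25.5 and 27.3 CPM in WT CDK9 cells, 29.3, 34.3 and 32.9 CPM with the inhibitor and 39.7, 38.3 and 43.5 CPM in Tyr19Phe cells (0.49, standard error 0.08, adjusted p = 0.000111). HLA-E, the ligand of NKG2A, had 159, 160 and 165 CPM, then 173, 172 and 183 CPM and 216, 221 and 212 CPM (0.27). CD274 (PD-L1) and PDCD1LG2 (PD-L2), the ligands of PD-1, were chosen after their values were seen. PDCD1LG2 had 2.25, 1.00 and 2.24 CPM, then 5.12, 3.90 and 2.89 CPM and 3.99, 3.87 and 4.86 CPM (1.16, standard error 0.28, adjusted p = 0.00623), a call lost without WT CDK9 replicate 2. CD274 was at 2.30 to 3.13 CPM, 3.35 to 3.98 CPM and 5.23 to 6.26 CPM (0.76, adjusted p = 0.0249), a call lost without WT CDK9 replicate 2 or 3. Of 36 interferon-stimulated genes, LGALS3BP and GBP1 were shared and higher. The call of GBP1 was lost without WT CDK9 replicate 2 or 3, and that of TAPBP without WT CDK9 replicate 1.

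Of 40 lysosome and autophagy genes, 5 were shared and higher (12.5%) and none lower. These were the cathepsins CTSB (0.23), CTSL (0.20) and CTSA (0.15), the saposin precursor PSAP (0.19) and the autophagy kinase ULK1, and the call of CTSA was lost without any of the WT CDK9 libraries. Of 26 immediate early genes, IER3, JUNB, KLF4, KLF2 and IER2 were shared and higher (19.2%) and CYR61 was lower. Before the libraries had to separate, 4 of the list were called lower and 6 higher, and its median was 0.01. KLF2, a Kruppel-like transcription factor, had 8.71, 9.33 and 7.37 CPM in WT CDK9 cells, 13.1, 15.7 and 9.81 CPM with the inhibitor and 13.3, 14.2 and 19.1 CPM in Tyr19Phe cells (0.74, standard error 0.15, adjusted p = 0.00107). KLF4, its close relative, had 6.41, 8.80 and 8.17 CPM, then 12.2, 10.9 and 9.50 CPM and 17.0, 16.5 and 15.2 CPM (0.77, standard error 0.14, adjusted p = 0.000196). JUNB, an AP-1 subunit whose gene overlaps HOOK2 on the other strand, rose by 0.36. ID1 (0.22) and ID3 (0.29, a call lost without WT CDK9 replicate 1), inhibitors of helix-loop-helix factors, were the higher members among 40 TGF-beta and BMP genes, and BMP2 (-0.30, adjusted p = 0.0413) was the lower one, a call lost in 7 of the 9 fits with a library left out. THBD, the thrombomodulin that turns thrombin to an anticoagulant role, rose from 11.5 to 15.8 CPM to 29.3 to 34.7 CPM with the inhibitor and 18.2 to 20.5 CPM in Tyr19Phe cells (0.86, standard error 0.11, adjusted p = 9.22e-07).

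Of 43 S phase genes, 6 were shared and lower (14.0%) and none higher, and of 54 G2/M genes 6 were lower (11.1%) and none higher, each list with a median of -0.06. ATAD2, PCNA, POLA1, RRM2, USP1 and SLBP were the S phase genes, and HMGB2, CBX5, TOP2A, TACC3, TMPO and CKAP5 the G2/M genes. PCNA, the sliding clamp of DNA polymerases, had 237, 246 and 229 CPM in WT CDK9 cells, 203, 210 and 219 CPM with the inhibitor and 208, 199 and 206 CPM in Tyr19Phe cells (-0.19, standard error 0.04, adjusted p = 0.000841). POLA1, the catalytic subunit of the polymerase that primes replication, went from 57.9 to 62.2 CPM to 48.7 to 53.3 CPM and 44.4 to 49.0 CPM (-0.31). TOP2A, the topoisomerase that untangles chromosomes, went from 867 to 900 CPM to 802 to 844 CPM and 746 to 819 CPM (-0.12). Of 52 replication factors 5 were lower and none higher, MCM9 (-0.39) and POLE (-0.16) among them, and of 26 cell cycle regulators CDK6 (-0.32), CCND3 (-0.22) and CCNA2 (-0.17) were lower and none higher. CDK6, a kinase of the G1 phase, was 274 to 295 CPM in WT CDK9 cells, 248 to 255 CPM with the inhibitor and 203 to 212 CPM in Tyr19Phe cells. With library size alone as the scaling, 4 S phase genes and 2 G2/M genes were shared and lower. In the separate comparison with the inhibitor, ATAD2, RRM2, HMGB2, CBX5, TOP2A, MCM9 and CCNA2 were not called (adjusted p from 0.0952 to 0.658, edgeR). PCNA, POLA1, TACC3, POLE, CDK6 and CCND3 were called there. The calls of TACC3, RRM2, CBX5, TOP2A, POLE and CCND3 were each lost without at least 1 of the WT CDK9 libraries. POLE and CBX5 were not shared with scaling to library size alone or to the upper quartile, and TACC3 and CCNA2 not with library size alone. Replication-dependent histones had a list median of 0.59 with none lower, made up of 0.24 with the inhibitor and 0.83 in Tyr19Phe cells. None of 47 tested genes of homologous recombination repair was shared in either direction, with a list median of -0.02 and 1 gene called lower. None of 37 P-TEFb and elongation genes, 29 p53 targets or 20 NF-kappaB genes was shared either. The study itself reported homology directed repair as enriched among genes down in each group, and lower repair genes by quantitative PCR. Neither result used the rule for shared genes, so the counts here do not bear on them directly. The background was 2.53% and 1.86% of all tested genes, or 3.07% and 2.19% of protein-coding ones. Each of these lists would hold few shared genes at either rate. Whether their absence differs from that background was not tested.

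**Figure D4:**
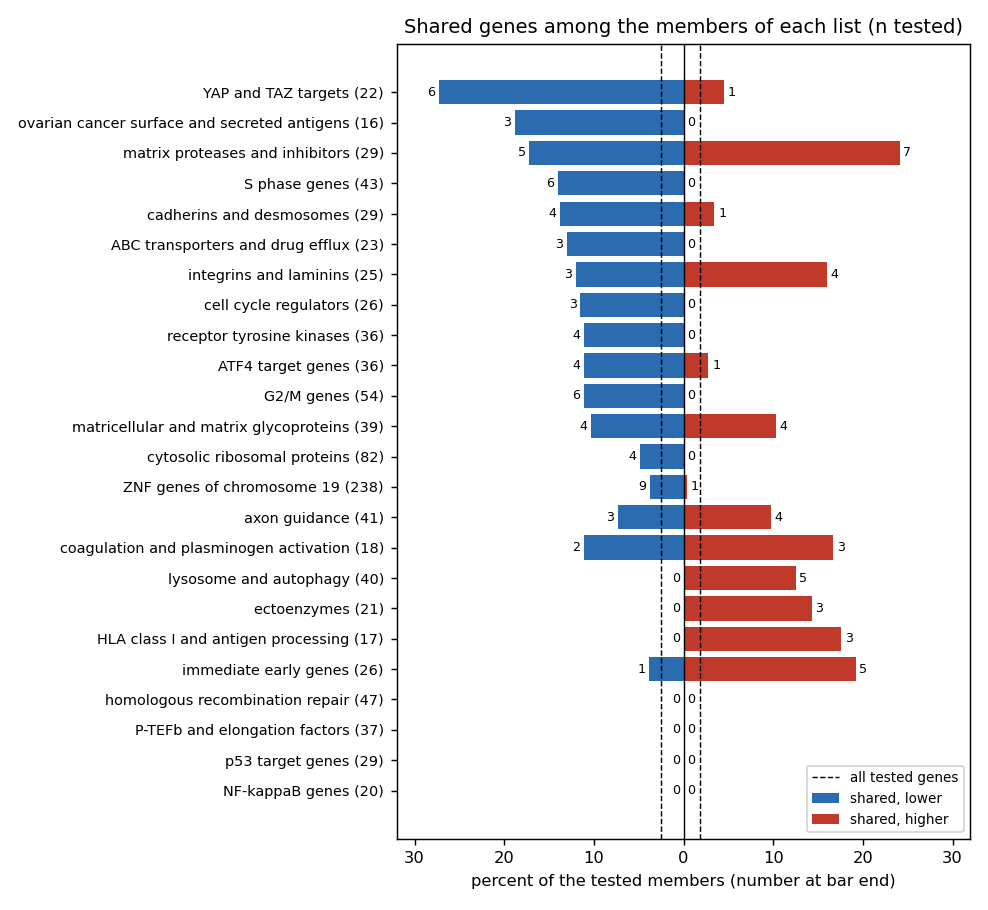
For 24 of the lists, the percent of tested members that were shared and lower (blue, to the left) or shared and higher (red, to the right), with the number of members at the bar ends and the number tested in brackets. The dashed lines mark the shares over all tested genes, 2.53% and 1.86%. Over the tested protein-coding genes alone these shares were 3.07% and 2.19%. YAP and TAZ targets, cell cycle lists and receptor tyrosine kinases extend to the left, matrix proteases to both sides, and lysosomal and HLA genes to the right.

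Of 36 targets of ATF4, the transcription factor of amino acid stress, SLC7A5, PSAT1, SLC7A1 and ATF5 were shared and lower (11.1%) and AARS was higher. SLC7A5, the large neutral amino acid transporter, had 2898, 3057 and 2809 CPM in WT CDK9 cells, 2150, 2116 and 2065 CPM with the inhibitor and 2607, 2610 and 2544 CPM in Tyr19Phe cells (-0.32, standard error 0.03, adjusted p = 1.07e-10). It fell further with the inhibitor, by 0.47 against 0.18 on the log2 scale. PYGL, which releases glucose from glycogen, showed the same order at 301, 330 and 306 CPM, then 196, 198 and 201 CPM and 243, 240 and 226 CPM (-0.53, standard error 0.04, adjusted p = 8.72e-12). Of 46 glycolysis and hypoxia genes 4 were lower and 5 higher, among them the glucose transporter SLC2A1 (0.23) and the circadian repressor BHLHE40 (0.24). HMOX1, which degrades heme, rose from 10.8 to 13.5 CPM to 15.8 to 17.9 CPM and 24.7 to 26.0 CPM (0.77). It was the only shared gene among 28 tested NRF2 targets, of which 8 were called lower and 2 higher. HSP90AA1, an abundant chaperone, fell from 3511 to 3615 CPM to 3096 to 3273 CPM and 2863 to 3026 CPM (-0.23). Of 24 heat shock and chaperone genes, HSPD1 (-0.11) was also shared and lower, and HSPB1 (0.22) and HSPA1B (0.26) were shared and higher. The calls of HSPD1 and HSPA1B were each lost in several fits with a library left out.

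Zinc finger genes of chromosome 19, many of which encode repressors of transposable elements, held 9 shared lower genes and 1 higher among 238 tested (3.78% and 0.420%). Of these 9, 6 lay in the stretch from ZNF430 to ZNF100 (chromosome 19 from 21020620 to 21767628 in GRCh38). ZNF431 had 100, 104 and 111 CPM in WT CDK9 cells, 56.1, 62.3 and 58.4 CPM with the inhibitor and 62.3, 65.0 and 64.6 CPM in Tyr19Phe cells (-0.78, standard error 0.06, adjusted p = 6.26e-12). ZNF100 (-0.57), ZNF430 (-0.60), ZNF429 (-0.53), ZNF714 (-0.36) and ZNF493 (-0.35) followed it, the last with an adjusted p of 0.0395 that was lost in 6 of the 9 fits with a library left out. The remaining ZNF genes of this stretch, ZNF708 and ZNF738, had values of -0.30 and -0.25 that were not called. The stretch was chosen after its values were seen, and its 8 tested ZNF genes had a median of -0.44, against 0.06 for 20 tested ZNF genes within 1.5 Mb on each side, of which none was shared. LINC00664, a noncoding gene that overlaps ZNF429 on the same strand, fell within the stretch as well, from 31.1 to 36.0 CPM to 14.3 to 19.5 CPM and 22.4 to 27.2 CPM. These genes are paralogs of high similarity, and how reads that fit several of them were counted is not given in the sources used here. ZNF699 (-0.70) and the pseudogene ZNF542P (-0.65), elsewhere on the chromosome, fell further in Tyr19Phe cells.

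The largest shared changes were in genes of low level. On the lower side these were OR7E19P (-1.86), RGPD6 (-1.69), GRHL1 (-1.39), CCDC146 (-1.35) and DENND1C (-1.27), all under 8 CPM. RGPD6 had 5.74, 3.27 and 7.21 CPM in WT CDK9 cells and 1.24 to 2.69 CPM in both groups, but it is 1 of several near-identical copies of RANBP2-like genes. The calls of OR7E19P and CCDC146 were lost without WT CDK9 replicate 2 or 3, and that of DENND1C without replicate 2. On the higher side were DIO2 (2.02), AL713998.1 (1.45), SIRLNT (1.39), TNFSF10 (1.37) and HIST1H2AG (1.37). DIO2, the deiodinase that activates thyroid hormone, had 0.564, 0.158 and 0.480 CPM, then 0.569, 0.713 and 1.19 CPM and 4.06, 3.91 and 1.92 CPM, with WT CDK9 and inhibitor libraries close together and Tyr19Phe libraries above both. The call of AL713998.1 was lost without any of the WT CDK9 libraries or Tyr19Phe replicate 1. TNFSF10, the death ligand TRAIL, was at 0.615 to 1.01 CPM, 1.37 to 1.87 CPM and 1.58 to 3.65 CPM, a call lost without WT CDK9 replicate 1 or 2 or Tyr19Phe replicate 1. The histone genes HIST1H2AG and HIST1H4I were the shared members among 23 tested replication-dependent histones, which had a median of 0.59 and none lower. That median was 0.24 with the inhibitor and 0.83 in Tyr19Phe cells. Neither gene was called with the inhibitor in its separate comparison (adjusted p = 0.0809 and 0.55, edgeR). Outside the protein-coding genes, 10 shared genes were lower and 16 higher of 3205 tested, with LINC00665 (-0.39), APCDD1L-DT (0.37) and LINC00941 (0.46) those with the next smallest adjusted p.

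Effects of unequal size were frequent among the shared genes. In the direct comparison of Tyr19Phe with inhibitor-treated cells, 20.7% of all tested genes and 256 of the 717 shared genes (35.7%) were called. These calls take their spread from the same fit that chose the shared genes, so the higher share among shared genes is not independent of that choice. Of these, 133 lower and 58 higher genes lay further from WT CDK9 in Tyr19Phe cells, and 39 and 26 lay further with the inhibitor. Of the 241 lower and 220 higher genes that were not called, the 95% interval of the difference lay within 0.5 log2 units of 0 for 219 and 185. The median log2 fold change of the lower shared genes was -0.22 with the inhibitor and -0.31 in Tyr19Phe cells, and that of the higher ones 0.28 and 0.33.

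Shared genes were spread unevenly over chromosomes. Lower genes made up 6.36% of tested genes on chromosome 21, 5.59% on chromosome 14 and 4.93% on chromosome 4, and none of the 401 on chromosome 22. Higher genes made up 4.13% on chromosome 10 and 3.49% on chromosome 22, 0.658% on chromosome 4 and none of the 173 on chromosome 21. The median log2 fold change of all tested genes of these chromosomes moved with this in Tyr19Phe cells, at -0.13, -0.13 and -0.22 on chromosomes 21, 14 and 4, and at 0.12 and 0.21 on chromosomes 10 and 22. With the inhibitor the same medians were 0.01, -0.00 and 0.00, and -0.01 and -0.02. The part of these shifts in the shared calls was not tested. Shared genes on these 5 chromosomes, 83 lower and 51 higher, had medians of -0.19 and 0.22 with the inhibitor, against -0.22 and 0.28 elsewhere. The rule that chose the shared genes fixes the sign of these medians, so they do not show an inhibitor effect on their own. Without the 5 chromosomes 330 lower and 253 higher genes were shared.

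**Figure D5:**
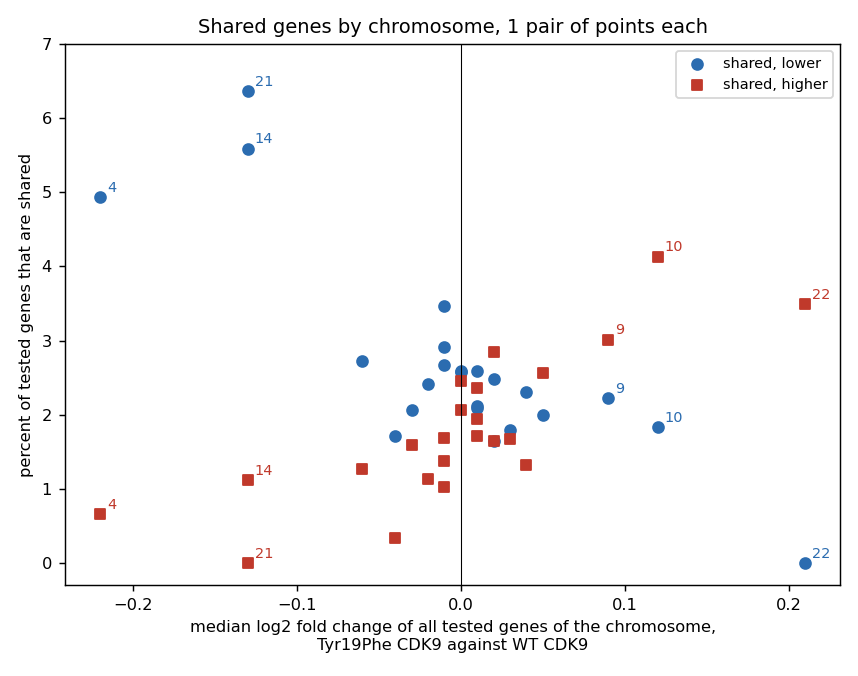
For each chromosome, the median log2 fold change of all its tested genes in Tyr19Phe CDK9 cells on the x axis and the percent of its tested genes that were shared and lower (circles) or shared and higher (squares) on the y axis. Chromosomes 4, 14 and 21 lie at the upper left for lower genes, and chromosomes 10 and 22 at the right, high for higher genes.

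Lower shared genes also had larger listed lengths than most, and shared genes of both directions were more abundant. The median listed length of the protein-coding ones was 7039 bases, against 5128 for the higher ones and 5137 for all tested protein-coding genes. Their median levels were 95.1 CPM, 59.0 CPM and 30.1 CPM. The rule for shared genes picks up small changes more readily at high counts, so a high level partly follows from the rule. Listed length is not the span of a gene on its chromosome, and span was not compared. NUP210, listed at 8182 bases, runs from 13316235 to 13420309 on chromosome 3. Protein-coding genes above 10 CPM were divided by listed length into 5 bins of like size. The share of lower genes went from 2.21% in the shortest bin (up to 3294 bases) to 7.01% in the longest (from 8726 bases). The share of higher genes was 2.69% and 2.32% in the same bins. The median log2 fold change of all genes in these bins was -0.00 and 0.00 with the inhibitor. In Tyr19Phe cells it was 0.02 and -0.06, so the shift with length was seen in that group. Its part in the shared calls was not tested. Median CPM rose as well, from 38.0 to 65.8, and the parts of length and level were not separated.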

How the data were processed

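RNA of 9 SKOV3 libraries was measured in 3 groups of 3. The deposited table holds raw counts per gene, which the authors made with HISAT2 2.0.5 and featureCounts 1.5.0-p3 on GRCh38 (hg38), per the labels. The annotation version and strand setting are not given in the sources used here.

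Genes were filtered with filterByExpr (10 counts, 15 in total) and scaled by TMM, and 1 mean per group was fitted with edgeR 4.0.16 (quasi-likelihood test, R 4.3.3), which left 6 residual degrees of freedom. CPM values are TMM-scaled. The p-values were adjusted over all 16350 tested genes. An exact test of 6 libraries against 3 could not go below a two-sided p of 0.0238. DESeq2 1.42.0, other scalings and filters, and fits without each library were alternatives, and the steps were tested on simulated data. Same-numbered libraries did not deviate together (correlations -0.0171 to 0.0668), so no pairing was used.

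Named genes were, in each direction, the 10 shared genes with the smallest adjusted p at 5 CPM or more, the 5 with the largest change, the leading members of 55 lists and 5 families, the leading noncoding genes and those at the threshold. The members and lists were chosen with earlier results of these data known. Promoters came from RefSeq (GRCh38.p14). A few named genes are not reported here.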

Additional observations from a re-analysis of the deposited data

Results flagged for a closer look

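The genes below were shared, yet their change differed in size between the 2 groups in edgeR's direct comparison of Tyr19Phe with inhibitor-treated cells. The difference itself does not use the WT CDK9 libraries, but its p-value takes the spread from the fit of all 9 libraries. Each value is that log2 difference, Tyr19Phe minus inhibitor, at an adjusted p under 0.05. With 3 libraries in each group, single libraries that stand apart were not looked for.

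Lower genes that lay further from WT CDK9 in Tyr19Phe cells were GRHL1 (-1.52), NUP210 (-1.44), DENND1C (-1.24), ABCA3 (-1.14), NPNT (-1.06), TIMP2 (-0.97), ZNF542P (-0.91), ZNF699 (-0.55) and JAG2 (-0.54). Next came CGN (-0.43), EGFR (-0.42), ERBIN (-0.40), ADCY6 (-0.37), CELSR2 (-0.36), LLGL2 (-0.32), SPRED1 (-0.32), ITGB4 (-0.32) and COL12A1 (-0.29). Then followed MAL2 (-0.28), CDK6 (-0.26), DLG1 (-0.25), ADCY9 (-0.25), ABCE1 (-0.23), CCNA2 (-0.22), FAT1 (-0.21), SUZ12 (-0.17) and CBX5 (-0.14). Smaller differences were those of ATAD2 (-0.13), HSP90AA1 (-0.12), THBS1 (-0.10) and FSTL1 (-0.09).

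Lower genes that lay further from WT CDK9 with the inhibitor were IGFBP3 (0.11), PSAT1 (0.15), CYR61 (0.16), AXL (0.16), TUFT1 (0.18), CD24 (0.21), MYLK (0.22) and PYGL (0.25). Next came HBEGF (0.26), KRT7 (0.26), ITGB8 (0.27), SLC7A5 (0.29), AMOTL2 (0.46), LINC00664 (0.56), PKP2 (0.61) and FGFR2 (0.98).

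Higher genes that lay further from WT CDK9 in Tyr19Phe cells were ITGB1 (0.08), AARS (0.17), ELOVL1 (0.17), CTSB (0.18), PSAP (0.20), PLAU (0.22), LGALS3BP (0.23), VIM (0.26) and HLA-E (0.30). Next came SEMA3A (0.32), LGALS1 (0.33), NLRC5 (0.34), GJA1 (0.38), NT5E (0.38), WNT9A (0.42), SPOCK1 (0.50), MMP2 (0.55) and HMOX1 (0.57). Then followed KLF4 (0.58), VEGFC (0.61), JUP (0.61), HIST1H2AG (0.84), HIST1H4I (1.14), SIRLNT (1.47) and DIO2 (2.00).

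Higher genes that lay further from WT CDK9 with the inhibitor were THBD (-0.76), TFPI2 (-0.51), SNAI2 (-0.43), ADAM19 (-0.29), IGFBP6 (-0.25), JUNB (-0.21), AKAP12 (-0.13) and TGFBI (-0.12).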

How the results depend on the processing

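The main comparison called 924 genes lower and 559 higher, with 413 and 304 shared and 256 of these called in the direct comparison. With an adjusted p under 0.01 the calls were 548 and 265, with 286 and 173 shared and 167 differing directly. With a log2 change of 1 or more in either direction they were 44 and 27, with 15 and 15 shared and 10 differing. With library size alone as the scaling 274 lower and 418 higher genes were shared. Requiring a call in each separate comparison left 159 and 105 (92 differing), and separation of the libraries with no test gave 629 and 542. Leaving out 1 library at a time gave 579 to 864 called lower and 314 to 517 called higher, with 343 to 442 and 236 to 328 shared and 211 to 336 differing. The lowest calls came without WT CDK9 replicate 1, followed by replicate 3 (612 and 354). The cause was not tested.

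With the replicate number as a block, 983 genes were called lower and 598 higher, with 423 and 306 shared and 259 differing, and 2 of the 169 called named genes lost their call. The libraries share only a number. Without chromosomes 4, 10, 14, 21 and 22, an alternative chosen after seeing the data, 699 were called lower and 459 higher, with 204 shared genes differing. DESeq2 called 935 and 612. Of the 169 called named genes, 119 kept their call under every alternative but the fold threshold and the stricter p, and none of 3466 gene and alternative pairs changed direction. Without WT CDK9 replicate 1, 2 or 3, 34, 32 and 30 lost their call. Nearly all named genes were chosen for their separation in these same libraries, so a change of direction was unlikely from the start. Depth limits the genes near 1 CPM most, where 3 counts equal 0.101 to 0.165 CPM.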
